A study of Mus musculus with 2 samples.

Results

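Cell division in the liver was followed here through 40 genes of the cell cycle, counted in single liver cells of healthy and of CCl4-injured mice. The genes were taken from textbook knowledge of the cycle and matched by Ensembl identifier, and all 40 were among the 30406 genes listed in both count matrices. Of them, 14 act in S phase, in which DNA is copied (Mcm2, Mcm3, Mcm4, Mcm5, Mcm6, Mcm7, Pcna, Tyms, Rrm1, Rrm2, Gins2, Cdc6, Cdc45 and Uhrf1), and 25 in G2 and mitosis, in which chromosomes are prepared and separated. Stmn1, a regulator of microtubules that also serves outside the cycle, was kept apart.

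Each condition was 1 library of a droplet assay that tags every captured RNA molecule with a unique molecular identifier (UMI), so differences have no replicate check and no test across animals was made. Both libraries came from Col1a2CreER:Rosa26tdTomato mice, in which the Col1a2 promoter, active in mesenchymal cells, drives an inducible Cre recombinase that switches on a red reporter. One group was healthy, and the other was injured by repeated CCl4, a toxin that is activated in hepatocytes. Per the labels, livers were digested with pronase and collagenase and cells were purified on a Nycodenz gradient, and the study's methods add a depletion of CD45-positive cells, so immune cells and their dividing share may be under-represented. The number of mice per library is not given in the sources used here, and the study's methods give young adult mice of this line for lineage tracing, without naming these libraries.

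The healthy library held 6297 barcodes with 51122846 UMIs and the CCl4 library 8460 barcodes with 97611831 UMIs, and 10 barcodes occurred in both. After filtering, 5602 healthy and 7314 CCl4 cells were kept, with 6783.5 and 11876 UMIs in the median cell. The 40 genes and wider lists of 35 G1 and S genes and 48 G2 and mitosis genes were left out of the clustering, to group cells by type. Other genes that vary with phase were not left out. Clusters were named from marker genes ("mesenchymal-like") or, where the markers did not allow a name, by their leading gene. The makeup of the libraries differed: 3527 healthy but 12 CCl4 cells were endothelial-like, 1277 and 22 cholangiocyte-like, and 8 and 3304 mesenchymal-like. Library, injury and software version of the deposited matrices cannot be told apart.

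A cell that enters the cycle first loads the MCM helicase onto DNA, then makes deoxynucleotides and copies its genome, and later builds up cyclin B with the kinase Cdk1, aligns its chromosomes and destroys the cyclin again. Many genes of the first stage are switched on by E2F factors. Many of the later stage are controlled by the DREAM and MuvB complexes, which bind the CHR element, often beside CCAAT boxes bound by NF-Y. In the healthy adult liver nearly all cells rest, while after injury hepatocytes, mesenchymal, endothelial and immune cells can all divide.

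The promoters of 5 members are shown because CHR letters were found more often in mitosis genes and E2F letters more often in S-phase genes. They are the 200 bases before the annotated start of each gene, 5′ to 3′ along the gene's strand, from RefSeq (GRCm38.p6), and capitals mark CHR (TTTGAA or TTCGAA) and CCAAT in the mitosis genes and E2F letters (TTTCCCGC, TTTCGCGC, TTTGCCGC or TTTGGCGC) in the S-phase genes, each searched on both strands.
Top2a, chr11:99024190-99024389, minus strand: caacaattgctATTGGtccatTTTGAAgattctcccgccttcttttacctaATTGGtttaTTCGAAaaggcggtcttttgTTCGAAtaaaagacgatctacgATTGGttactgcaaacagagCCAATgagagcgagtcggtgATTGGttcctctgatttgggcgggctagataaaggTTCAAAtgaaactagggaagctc
Cdc20, chr4:118437344-118437543, minus strand: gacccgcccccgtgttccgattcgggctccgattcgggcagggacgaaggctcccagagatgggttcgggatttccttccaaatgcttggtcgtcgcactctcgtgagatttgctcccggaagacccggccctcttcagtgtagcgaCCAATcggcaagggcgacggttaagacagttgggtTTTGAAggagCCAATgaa
Ube2c, chr2:164769729-164769928, plus strand: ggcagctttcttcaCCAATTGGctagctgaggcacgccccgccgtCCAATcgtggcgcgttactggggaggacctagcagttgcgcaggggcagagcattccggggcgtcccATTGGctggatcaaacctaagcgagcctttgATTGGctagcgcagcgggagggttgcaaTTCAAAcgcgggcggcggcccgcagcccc
Mcm5, chr8:75109309-75109508, plus strand: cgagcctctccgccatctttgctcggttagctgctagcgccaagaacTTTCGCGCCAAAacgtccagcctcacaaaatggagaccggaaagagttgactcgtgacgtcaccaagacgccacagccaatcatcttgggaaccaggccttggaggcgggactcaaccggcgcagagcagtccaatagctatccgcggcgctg
Mcm6, chr1:128359706-128359905, minus strand: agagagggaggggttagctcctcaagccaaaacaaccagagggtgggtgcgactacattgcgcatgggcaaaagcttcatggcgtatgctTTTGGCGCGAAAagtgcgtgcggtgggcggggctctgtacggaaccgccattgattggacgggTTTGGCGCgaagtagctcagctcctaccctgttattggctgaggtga
Top2a, which unknots DNA before chromosomes separate, held 4 CHR matches here, and Cdc20 and Ube2c, both parts of the machinery that destroys cyclin B, held 1 each, at 18 to 13 and 29 to 24 bases before the start. Mcm5 held 2 overlapping E2F matches, 1 on each strand, and Mcm6 held 3. A promoter of 300 bases (250 before to 50 after the start) was available for 33 of the 40 genes. CHR letters were in 17 of 21 mitosis genes and 3 of 12 S-phase genes, against 19.2% of all 32851 promoters. E2F letters were in 6 of 12 S-phase genes (Mcm3, Mcm5, Mcm6, Mcm7, Cdc6 and Uhrf1) and in 1 of 21 mitosis genes (Cdk1), against 2.26% of all promoters. CCAAT was in 18 of 21 and 10 of 12 genes, against 37.4%. A match describes letters and not a bound site.

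Mitosis genes were rare in the healthy library and more abundant in the CCl4 library, while S-phase genes differed less. Over all cells, the 25 mitosis genes together had a level of 100.9 CPM in the healthy and 355 CPM in the CCl4 library, and the CCl4 to healthy ratio was 3.52 [3.41, 3.63]. CPM are the UMIs of a list or gene per 1000000 UMIs, always summed over the cells of a population. The 14 S-phase genes had 192 and 238 CPM, which gave 1.24 [1.21, 1.27]. Square brackets hold exact 95% intervals, which cover counting error only. Of the 40 genes, 29 were at least 2-fold higher in the CCl4 library, among genes with at least 10 UMIs in both libraries together, where 17.8% of all genes were higher and 25% lower. They were 24 of the 25 mitosis genes and 5 of the 14 S-phase genes. Ratios ran up to 14.4 [10.9, 19.2] for Hmmr, a spindle protein, and 13.5 [10.1, 18.6] for Cenpe, a kinetochore motor. The exception was Cenpa, the histone variant that marks centromeres, at 52.4 CPM in the healthy and 24.4 in the CCl4 library. Because the libraries held different cell types, these ratios combine differences in makeup and in division, and they moved with the scaling (4.43 for mitosis and 1.56 for S phase with TMM).

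**Figure D1:**
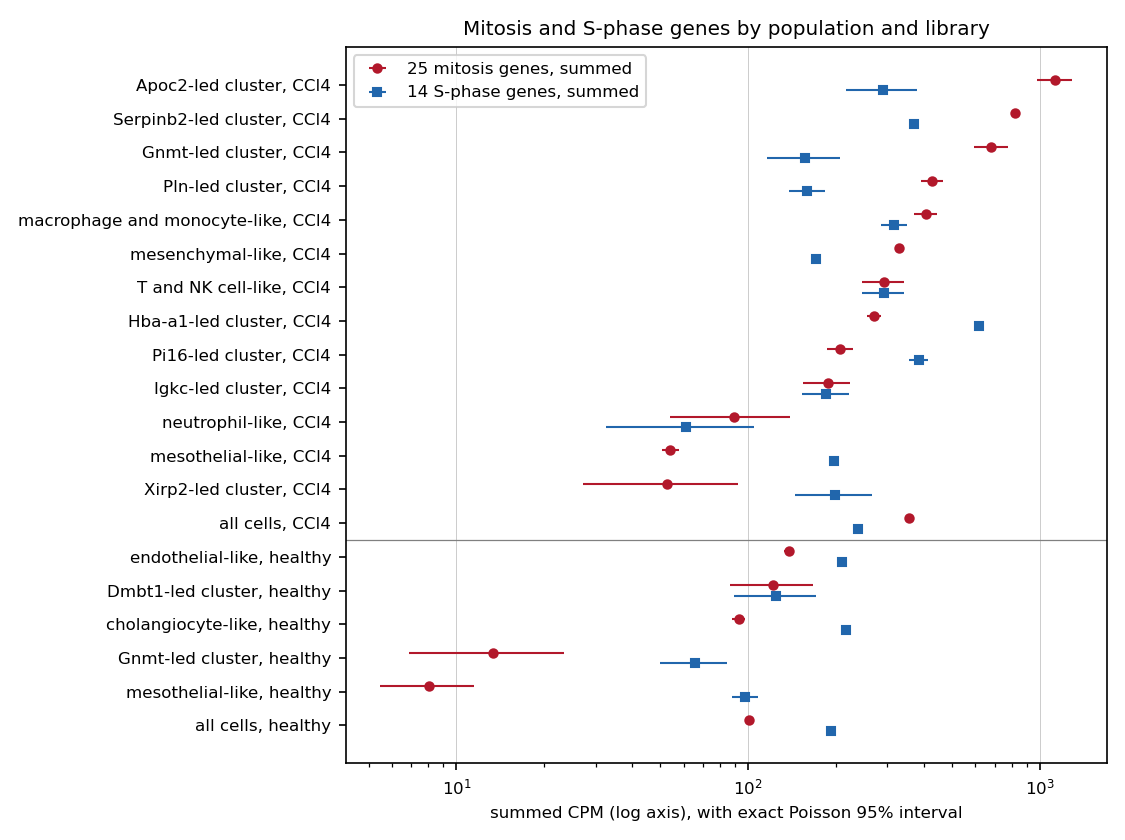
Summed CPM (log axis) of the 25 mitosis genes (circles) and the 14 S-phase genes (squares) in each population of at least 50 cells, with exact Poisson 95% intervals. In the CCl4 library, above the grey line, mitosis exceeds S phase in the mesenchymal-like, Serpinb2-led, Pln-led, Gnmt-led and Apoc2-led cells, and S phase exceeds mitosis in the Hba-a1-led, Pi16-led and mesothelial-like cells.

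To compare cells of unequal depth, each cell was thinned to 2000 UMIs, and cells with at least 3 UMIs of a list are called mitosis-high or S-high. They are the upper end of a range and not a cell type. Mitosis-high cells were 18 of 4806 healthy cells (0.375% [0.222, 0.591]) and 237 of 6186 CCl4 cells (3.83% [3.37, 4.34]), with 796 and 1128 shallower cells left out. Of these, 10 healthy and 40 CCl4 cells lay at exactly 3 UMIs, and a further 87 and 83 cells had 2. S-high cells were 56 healthy (1.17% [0.881, 1.51]) and 180 CCl4 cells (2.91% [2.51, 3.36]). Without thinning, at least 3 mitosis UMIs were found in 4.998% and 9.72% of the cells, and at least 3 S-phase UMIs in 19.5% and 28.4%. As a measure of background, 0 of 48 hepatocyte-like healthy cells (median 42576.5 UMIs) were mitosis-high, which allows up to 6.25%, and so was 1 of 46 neutrophil-like CCl4 cells (median 2272 UMIs), a type that no longer divides. In that class Kif23, a motor of cytokinesis, gave 73.7% of the mitosis UMIs (14 of 19), while Cdk1, Cenpf and Birc5 were at 0.

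The 237 mitosis-high and the 180 S-high cells of the CCl4 library were spread differently over the clusters. Of the former, 39.7% were in the Thbs4-led cluster (mesenchymal-like), which held 24.2% of the cells at 2000 UMIs. The unnamed Serpinb2-led cluster had 22.4%, with 10.3% of the cells. The Bco1-led cluster (mesenchymal-like) had 15.6%, below its 21.7% of the cells, and the unnamed Hba-a1-led cluster had 7.17%. Of the S-high cells, 36.7% were in the Hba-a1-led cluster, which held 9.34% of the cells, and 36 of the 180 were in the Thbs4-led and 27 in the Serpinb2-led cluster.

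**Figure D2:**
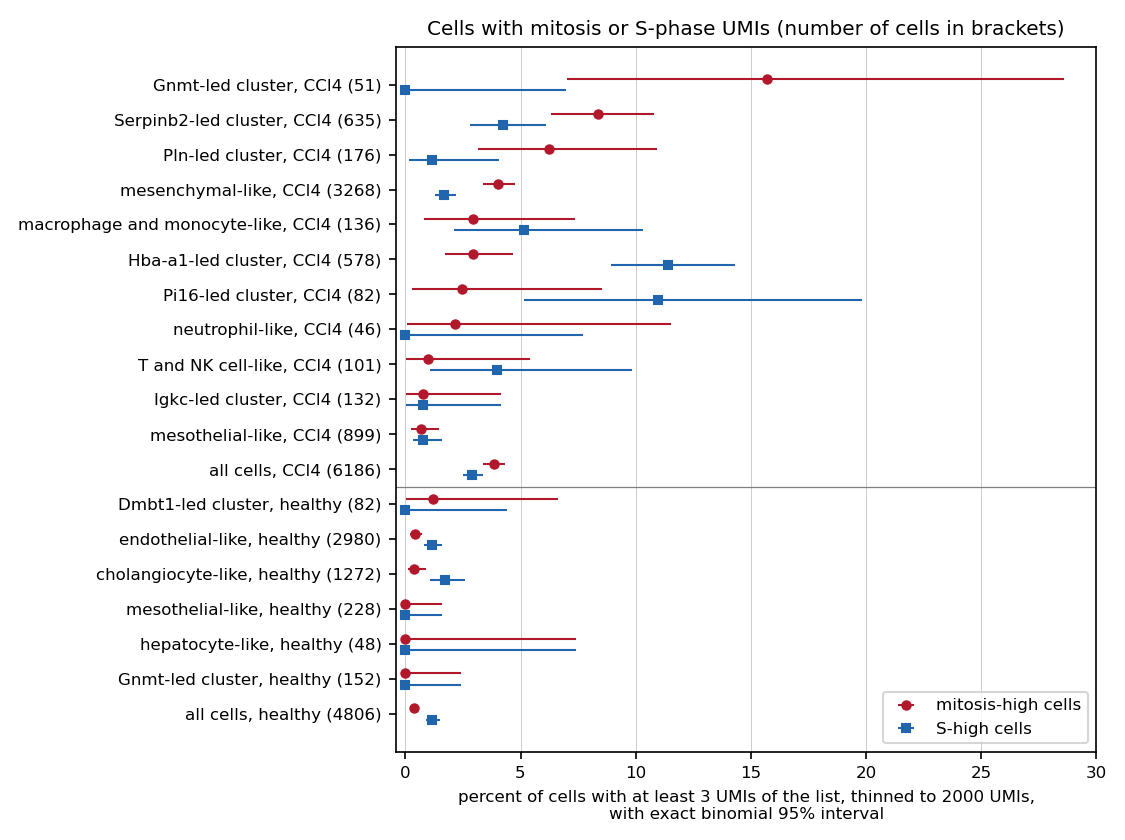
Percent of cells that were mitosis-high (circles) or S-high (squares) after thinning to 2000 UMIs, with exact binomial 95% intervals and the number of cells in brackets, for populations with at least 40 such cells. The Serpinb2-led cells reach 8.35% mitosis-high and the Hba-a1-led cells 11.4% S-high, while every healthy population with S-high cells stays below 2%.

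In the healthy library, cholangiocyte-like cells, the lining of bile ducts, held the 3 cells with the most mitosis UMIs. Their mitosis genes had 92.7 CPM [88.3, 97.2] and their S-phase genes 216 [209, 223]. Mitosis-high cells were 5 of 1272 (0.393% [0.128, 0.915]), of which 3 had at least 10 mitosis UMIs and the highest had 35. Mki67, the classic proliferation antigen, had 5.92 CPM [4.85, 7.15], Top2a 8.41 and Cenpf 8.02. Stmn1 was high, at 195 CPM, against 21.9 in endothelial-like cells.

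Endothelial-like healthy cells had more mitosis UMIs, at 138 CPM [133, 143], but 79.4% of them were Cenpa. Without Cenpa the level was 28.4 CPM [26.1, 30.7]. Mki67 had 0.194 CPM [0.0528, 0.496] and Cenpf 0.0485, which was 1 UMI in 3527 cells. The 12 mitosis-high cells of 2980 had at most 4 mitosis UMIs, none had 3 different mitosis genes, and none was left without Cenpa. Cenpa was seen in 41.0% of the endothelial-like cells, and the mitosis sums of the endothelial clusters ran from 130 to 147 CPM. Among S-phase genes, Mcm3 (54.5 CPM) and Pcna (54.9 CPM) gave most of the 209 CPM, while Uhrf1, which copies DNA methylation at the fork, had 0.194 and Cdc6, which loads the MCM helicase, 0.339. Mesothelial-like cells, the covering of the liver, had 8.07 CPM [5.49, 11.5] of mitosis genes and 0 mitosis-high cells of 228, which allows up to 1.32%. The hepatocyte-like cells had 9.66 CPM [5.73, 15.3].

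In the CCl4 library, mesenchymal-like cells, the collagen-producing class of the liver, had more UMIs of mitosis than of S-phase genes. The 3304 cells had 328 CPM [322, 333] of mitosis genes and 170 [166, 174] of S-phase genes, a ratio of S phase to mitosis of 0.519 [0.505, 0.533]. Because capture efficiency differs between genes, this ratio is read only between populations and never as a share of time. Mitosis-high cells were 132 of 3268 (4.04% [3.39, 4.77]) and S-high cells 55 (1.68% [1.27, 2.19]). Of the 163 cells that were high for either list, 66.3% were high for mitosis alone, 19.0% for S phase alone and 14.7% for both. The healthy library had 8 mesenchymal-like cells, too few for a comparison. These values depend on leaving cell cycle genes out of the clustering: with them kept, 129 of the 132 mitosis-high cells fell in a Cenpf-led cluster of 375 cells, and the cells still named mesenchymal-like had 52.9 CPM of mitosis and 126 of S-phase genes, a ratio of 2.38, with 0.102% mitosis-high cells.

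The 3 mesenchymal clusters were unequal. The Thbs4-led cluster had 530 CPM of mitosis genes and 94 mitosis-high cells of 1496 (6.28% [5.11, 7.63]), and the Bco1-led cluster had 193 CPM and 37 of 1340 (2.76% [1.95, 3.79]). The Angptl6-led cluster, with the mesenchymal markers Rgs5 and Colec11 among its leading genes, had 44.3 CPM and 1 of 432 (0.231% [0.00586, 1.28]). Such markers were not particular to it. The Bco1-led cluster had Reln among its leading genes and 13 mesenchymal markers enriched, against 10 in the Angptl6-led cluster. The ratio of S phase to mitosis was 2.25 [1.94, 2.61] in the Angptl6-led, 0.409 [0.395, 0.424] in the Thbs4-led and 0.726 [0.690, 0.763] in the Bco1-led cluster. Median depth was 13572 UMIs in the Thbs4-led, 13948 in the Bco1-led and 13492.5 in the Angptl6-led cells.

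**Figure D3:**
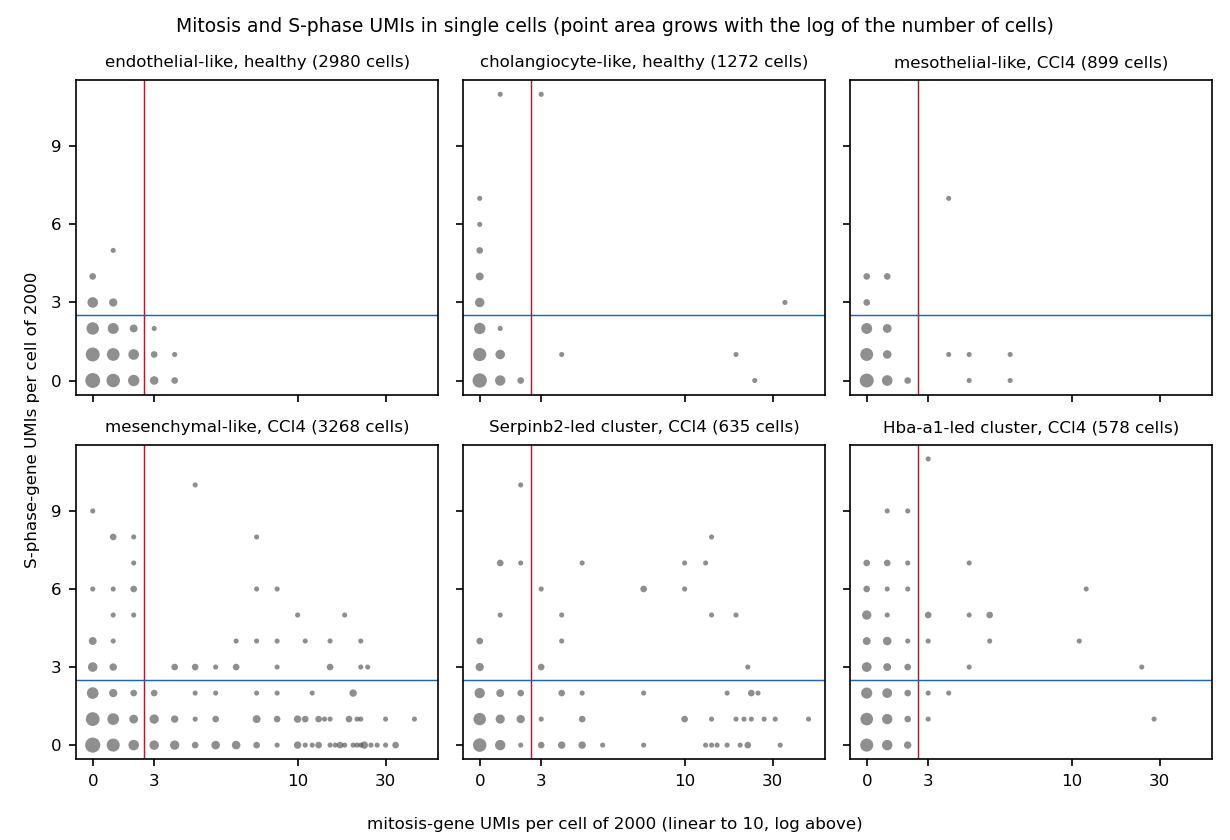
UMIs of mitosis genes (horizontal, linear to 10 and log above) and of S-phase genes (vertical) per cell thinned to 2000 UMIs, in 6 populations, with lines at the cut of 3 UMIs. Points lie far to the right in the mesenchymal-like and Serpinb2-led cells, up to 43 and 47 mitosis UMIs, and mostly along the vertical axis in the Hba-a1-led cells, while endothelial-like healthy cells stop at 4.

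Genes of every mitotic role were present in the mesenchymal-like cells. Cenpf, a kinetochore protein, had 34.2 CPM [32.5, 35.9], Cdk1 31.9, Mki67 28.5, Top2a 28.0 and Cenpa 24.9. The cyclins were Ccnb2 at 22.1, Ccna2 at 6.57 and Ccnb1 at 5.67 CPM. Among kinases, Bub1b of the spindle checkpoint had 7.23, Plk1 4.12, Aurkb 3.79, Aurka 2.58, Bub1 2.43 and Ttk 1.61 CPM. Ube2c (19.6) and Cdc20 (9.95) served cyclin destruction, and Hmmr (17.4), Tpx2 (16.2), Nusap1 (8.89), Kif20a (8.23), Kif23 (8.12) and Kif11 (4.98 CPM) the spindle. These are captured molecules at the 3′ end and are not scaled by gene length, so an order between genes is also an order of capture.

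**Figure D4:**
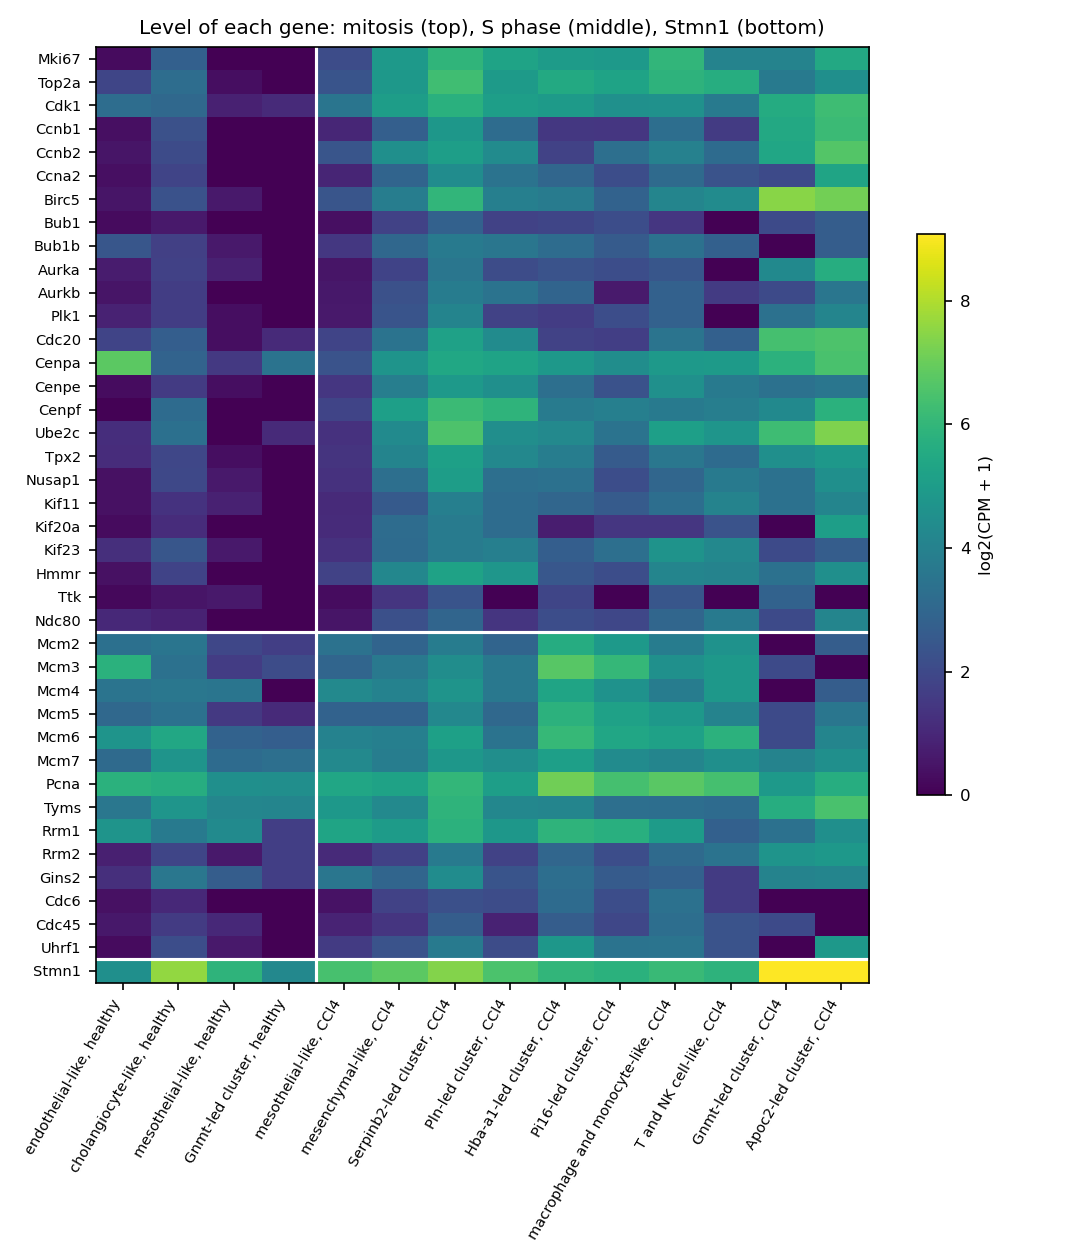
Level of each of the 40 genes as log2(CPM + 1) (colour) in populations of the healthy library (left of the white line) and of the CCl4 library (right). Cenpa stands alone among the mitosis genes of the healthy endothelial-like cells, and the Mcm genes and Pcna are brightest in the Hba-a1-led cells.

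The mitosis-high mesenchymal-like cells were compared with the 2776 mesenchymal-like cells of the same library that had 0 thinned mitosis UMIs. Since mitosis UMIs chose the cells, the values of the 25 genes are a description: Mki67 had 494 against 2.26 CPM, Cenpf 612 against 1.97, Top2a 482 against 2.16 and Ccnb1 107 against 0.263. The smallest ratio was that of Cdk1, at 236 against 17.4 CPM. S-phase genes were not used to choose the cells, and all 14 were at least 2-fold higher, where 11.8% of all genes tested were higher and 5.65% lower. Together they had 670 against 128 CPM, a ratio of 5.22 [4.92, 5.53], and within the Thbs4-led cluster alone 5.38 [5.04, 5.75], where all 14 were again higher, against 10.9% of all genes higher and 8.32% lower. The MCM helicase subunits ran from 2.34 [1.80, 3.02] for Mcm4 to 12.6 [9.51, 16.7] for Mcm5. Rrm2, the S-phase subunit of ribonucleotide reductase, stood at 44.4 [27.4, 74.4], while its partner Rrm1 stood at 4.79 [4.17, 5.49]. Uhrf1 was at 34.3 [23.3, 51.1], Cdc45 of the helicase at 21.2 [12.0, 37.8], Tyms, which makes thymidylate, at 9.60, and Pcna, the clamp of the polymerases, at 3.86. Stmn1 had 1031 against 50.4 CPM.

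The wider list of G1 and S genes showed which steps moved with mitosis and which did not. Of its 35 genes, 27 were at least 2-fold higher and 1 lower in the mitosis-high cells, and of 48 wider G2 and mitosis genes all 48 were higher. Of all genes tested, 11.8% were higher and 5.65% lower. The cells were chosen by mitosis UMIs, and genes such as Kif14 (49 and 2 UMIs) passed the 10 UMIs only through the mitosis-high cells. The counts therefore carry no weight of their own. The D-type cyclins did not follow: Ccnd1 had 46.8 against 45.7 CPM (1.02 [0.832, 1.25]) and Ccnd3 94.9 against 103. Ccnd2 was the 1 lower gene, at 93.6 against 229 (0.408 [0.354, 0.468]). Tk1, a thymidine kinase, had 102 against 2.001 CPM (51.2 [39.4, 67.3]), and the E2F repressors E2f7 and E2f8 stood at 52.2 and 31.6. Of the wider list, Depdc1a, Kif15, Kif4, Kif14 and Espl1 (separase, which cuts the ties between sister chromatids) had the highest ratios, with 1 to 5 UMIs in the cells without mitosis UMIs, for example Kif4 with 61.5 against 0.132 CPM (467 [195, 1461]).

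Among genes on neither list with at least 50 CPM in the higher group, the highest ratios included those of Pimreg (96.2 against 0.211 CPM), Esco2, Cep55, Mxd3, the histone genes Hist1h3c, Hist1h2ap and Hist1h1b, Knl1 and Pclaf. Hist1h2ap had 653 against 3.501 CPM (187 [156, 224]). Histone genes of this cluster have near-identical copies, so the split of reads among them is uncertain. Esco2 and Knl1 act on sister chromatids and the kinetochore. The 10 lowest were Ogn (13.8 against 87.4 CPM, 0.158 [0.107, 0.225]), Fbxl22, Fgl2, Tmem100, Npr3, Dpep1, Pid1, Ly6a, Sema3d and Serpina3g. Ly6a, at 0.358 in all mesenchymal-like cells, was 0.764 within the Thbs4-led cluster, while Sema3d was at 0.342 and Fgl2 at 0.130 there. The 15 mesenchymal markers summed to 26200 CPM in mitosis-high and 29695 in mitosis-zero cells, and none differed by 2-fold. Of 15 endothelial markers, 8 were at least 2-fold higher in mitosis-high cells (589 against 518 CPM in sum). Their part in the result was not tested. Mitosis-high cells had a median of 15521.5 UMIs against 13738.

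Cells chosen by either list also differed in the wider lists. In mesenchymal-like cells that were S-high alone (31 cells), the wider G1 and S genes, which did not choose them, had 2492 CPM [2377, 2612], against 844 [802, 889] in 108 cells that were mitosis-high alone and 693 [684, 702] in 2196 cells with 0 UMIs of both. The wider G2 and mitosis genes ran the other way, at 1945 CPM in S-high and 6290 in mitosis-high cells, against 383 in cells with neither. Stmn1 had 344 CPM in S-high, 1017 in mitosis-high and 47.1 in the others. Cdkn1a, the inhibitor p21, had 29.9 CPM [18.5, 45.8] in S-high, 65.7 [54.2, 78.9] in mitosis-high and 25.2 [23.4, 27.1] in the others. In the 24 cells high for both lists Cdkn1a had 58.8 [39.7, 84.0].

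The Serpinb2-led cluster (680 CCl4 and 0 healthy cells) had the largest share of mitosis-high cells among CCl4 populations with over 100 cells at 2000 UMIs. Its leading genes were Serpinb2, Cxcl5, Enpp2 and Cxcl13, and under 3 markers of any class were enriched, so it stayed unnamed. It had 817 CPM [803, 832] of mitosis genes, 53 mitosis-high cells of 635 (8.35% [6.31, 10.8]) and 27 S-high cells (4.25%). Its ratio of S phase to mitosis, 0.452 [0.438, 0.467], lay below that of the mesenchymal-like cells. Ube2c had 92.5 CPM [87.6, 97.5], Top2a 76.9, Cenpf 72.7, Birc5, a chromosomal passenger protein, 62.3, and Mki67 60.6, and 9 mitosis genes had their highest level here among populations of at least 50 cells. In 38 of its cells that were mitosis-high alone, Cdkn1a had 37.3 CPM [27.2, 49.9], and in 12 that were S-high alone 29.2 [14.6, 52.2]. It had 159 [151, 168] in cells with neither and 116 [90.9, 146] in the 15 cells high for both lists.

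Cells with most endothelial markers had more UMIs of S-phase than of mitosis genes in both libraries. In the healthy library the levels were 209 and 138 CPM, and in the CCl4 library 545 and 250. The CCl4 cells were mainly the Hba-a1-led cluster (653 cells) and the Pi16-led cluster (83 cells), and neither received a name. The Hba-a1-led cluster had 12 endothelial markers enriched but was led by haemoglobin genes. The Pi16-led cluster had 5 endothelial and 5 mesenchymal markers enriched, a tie that was counted as endothelial here and in the pooled comparison below. It shared Vipr1, Tmem56, Colec10 and Rgs5 among its leading genes with the mesenchymal Angptl6-led cluster. S-phase genes had 616 CPM [593, 640] in the Hba-a1-led and 383 [355, 413] in the Pi16-led cells, above their mitosis genes (270 and 206 CPM). Of 578 Hba-a1-led cells, 66 were S-high (11.4% [8.94, 14.3]) and 17 mitosis-high (2.94% [1.72, 4.67]), and among the 70 high for either, 75.7% were S-high alone against 19.0% in mesenchymal-like cells. The intervals of these shares were [64.0, 85.2] and [13.3, 25.9]. They cover counting error among cells of the same library and give no check across animals. All 6 Mcm genes, Pcna and Rrm1 had their highest level in the Hba-a1-led cells, Pcna with 136 CPM [126, 148], Mcm3 with 104, Mcm6 with 67.3 and Mcm5, whose E2F letters are shown above, with 56.5. Tyms did not follow, at 16.4 CPM against 18.5 in mesenchymal-like cells, nor did Ccnb1, at 1.80 against 5.67.

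With all clusters of most endothelial markers pooled, 748 CCl4 cells were set against 3561 healthy ones, and all 40 genes passed the 10 UMIs. Of them, 35 were at least 2-fold higher in the CCl4 cells, where 11.4% of all genes were higher and 17.4% lower. Genes with few healthy UMIs, such as Mki67 and Uhrf1, passed this filter only through the CCl4 cells, so the summed ratios carry the comparison. S-phase genes had 545 against 209 CPM, a ratio of 2.61 [2.497, 2.73], and mitosis genes 250 against 138 (1.82 [1.71, 1.93]), or 225 against 28.3 without Cenpa. With cell cycle genes kept in the clustering the mitosis ratio turned to 0.730. Mki67 had 29.8 against 0.193 CPM (154 [59.1, 570]), Uhrf1 22.0 against 0.193 (114 [43.3, 422]), Top2a 42.3 against 2.71 and Mcm5 49.96 against 7.35 (6.80 [5.58, 8.30]). Cenpa was the lower gene, at 25.5 against 109 CPM (0.233 [0.197, 0.274]). Cdc20 had 2.39 against 2.61 CPM (0.914 [0.479, 1.64]), while Ube2c, which works with it, had 15.8 against 1.26. Of the wider lists, 24 of 35 G1 and S genes were higher and 0 lower, and 34 of 45 measured G2 and mitosis genes were higher and 1 lower.

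Other RNA moved with this comparison. The 15 mesenchymal markers summed to 6755 CPM in the CCl4 and 156 in the healthy cells (15 of 15 at least 2-fold higher), the 7 erythroid markers to 18147 and 15.8 CPM (6 of 7 higher), with Hba-a2, Hbb-bs and Hbb-bt among those at 0 in the healthy cells, and the endothelial markers to 11296 and 21565 CPM (7 of 15 lower). Their part in the result was not tested. The ratio of S phase to mitosis differed from that of the mesenchymal-like cells of the same library, at 2.18 [2.05, 2.31] against 0.519.

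**Figure D5:**
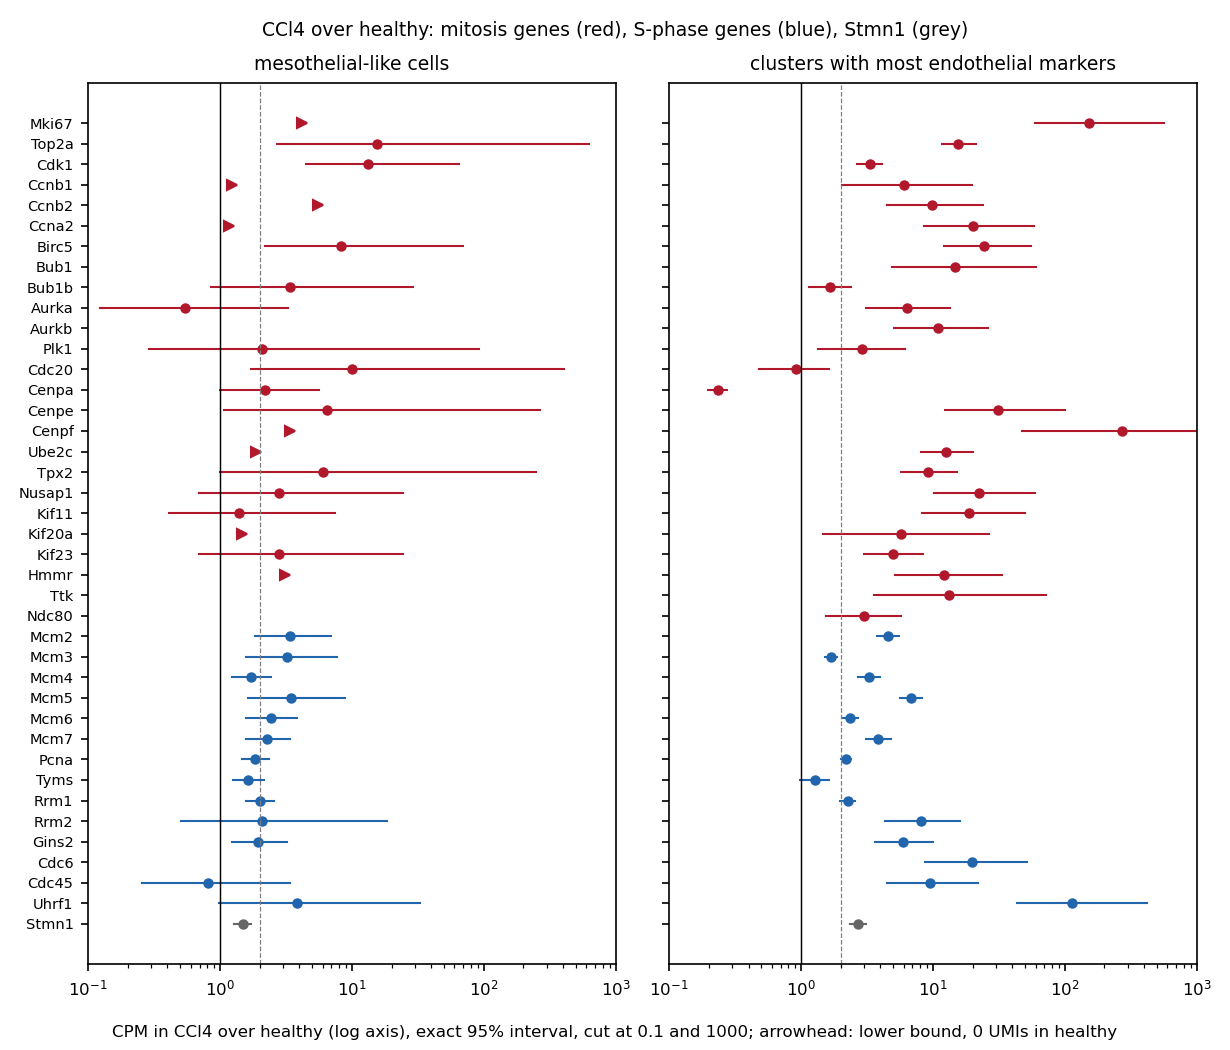
Ratio of CPM, CCl4 over healthy (log axis), for the genes with at least 10 UMIs in mesothelial-like cells (left) and in the clusters with most endothelial markers (right), with exact 95% intervals, a solid line at no difference and a dashed line at 2-fold. Arrowheads are lower bounds for genes with 0 healthy UMIs, and Cenpa lies at 0.233 on the right while most other genes lie above 2.

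Mesothelial-like cells were the 1 named class with enough cells in both libraries for a comparison (231 healthy and 899 CCl4). They came from different clusters, the Myl7-led cluster in the healthy and the Prg4-led cluster in the CCl4 library. Mitosis genes had 8.07 CPM (31 UMIs) in the healthy and 54.1 (891 UMIs) in the CCl4 cells, which gave 6.70 [4.69, 9.92], and S-phase genes had 97.4 and 196 CPM, a ratio of 2.01 [1.81, 2.25]. Of the 35 genes with at least 10 UMIs, 22 were at least 2-fold higher and 0 lower, where 13.2% of all genes were higher and 13.2% lower. A gene with few UMIs can pass this filter only through the CCl4 cells, so the summed ratios carry the comparison. The mitosis ratio was 3.60 with 30 principal components and 3.29 with cell cycle genes kept in the clustering, and 13 and 12 genes were then higher. Cdk1 had 10.4 against 0.781 CPM (13.4 [4.50, 65.4]), Mcm2 9.77 against 2.86 (3.41 [1.86, 6.97]) and Mcm5 6.31 against 1.82 (3.46 [1.62, 8.83]). Mki67 had 54 UMIs in the CCl4 and 0 in the healthy cells, and its ratio had an exact lower limit of 3.30. Counting 3 UMIs for the 0, the ratio was 4.19. For Ccnb2 these values were 4.37 and 5.52.

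Few of these cells were high for a list, with 6 mitosis-high (0.667% [0.245, 1.45]) and 7 S-high of 899, a highest count of 7 mitosis UMIs, and 0 of 228 in the healthy library. S phase exceeded mitosis in both libraries (ratios of 12.1 [8.36, 18.0] and 3.63 [3.37, 3.91]). Of the wider lists, 10 of 31 measured G1 and S genes were higher and 2 lower, and 17 of 37 measured G2 and mitosis genes were higher and 6 lower, with a summed ratio of 0.745 [0.707, 0.784] that lay below 1. The hepatocyte markers in these cells summed to 627 CPM in the healthy and 43.6 in the CCl4 library (14 of 15 lower). The endothelial markers summed to 405 and 45.0 (12 of 15 lower). The macrophage markers summed to 46.6 and 225, with 2 higher and 1 lower of the 8 with at least 10 UMIs. The mesenchymal markers summed to 8371 and 6232 CPM, with 8 of 15 higher, and the mesothelial markers to 10360 and 4524 CPM, with 5 of 9 lower. Their part in the result was not tested.

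Clusters with most hepatocyte markers had high mitosis levels per UMI in the CCl4 library, from few molecules. The healthy ones were the 48 hepatocyte-like cells, 273 Gnmt-led cells and 6 Apoc2-led cells, and the CCl4 ones were 119 Gnmt-led cells (15 hepatocyte markers, median 1852 UMIs) and 211 Apoc2-led cells (8 markers, median 698 UMIs). Mitosis genes had 10.8 CPM (30 UMIs) in the healthy and 842 (424 UMIs) in the CCl4 cells, which gave 77.6 [53.6, 116]. This ratio was 41.8 with a mitochondrial limit of 10%, 26.5 with no limit, 37.4 without doublet removal and 18.2 with 30 principal components. S-phase genes had 47.4 and 205 CPM (4.32 [3.30, 5.63]). Of the 40 genes, 19 reached 10 UMIs and 18 of them were at least 2-fold higher, where 15.9% of all genes were higher and 23.2% lower. Most passed only through the CCl4 cells, such as Birc5 with 83 and 1 UMIs and Ccnb2 with 31 and 0, so this count carries no weight of its own. Within the Gnmt-led cluster, present in both libraries, mitosis genes had 13.4 against 680 CPM (50.9 [28.6, 100.1]), and 10 of 12 measured genes were higher, where 7.07% of all genes were higher and 23.1% lower. The same limit holds for this count, with Birc5 at 57 and 0 UMIs.

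The makeup of the mitosis UMIs differed from that of the mesenchymal-like cells. Birc5 had 178 CPM [135, 230] in the Gnmt-led CCl4 cells, which was 26.1% of their mitosis UMIs, against 4.07% in mesenchymal-like cells. Cdc20 made up 12.4% and Ube2c 11.0%, while Mki67 made up 2.29% and Top2a 1.83%, against 8.70% and 8.54% in mesenchymal-like cells. Stmn1 had 540 CPM [462, 626] in the Gnmt-led and 536 [435, 653] in the Apoc2-led CCl4 cells, against 17.8 in the Gnmt-led healthy cells and 110 in mesenchymal-like cells. S-phase genes were low beside mitosis, with ratios of 0.229 [0.165, 0.313] and 0.257 [0.187, 0.349]. In the Gnmt-led CCl4 cells Tyms had 49.9 CPM and Rrm2 24.95, while Mcm2, Mcm4, Cdc6 and Uhrf1 were at 0. There 1 UMI was 3.12 CPM, so a 0 does not exclude a low level. Mcm4, Cdc6 and Uhrf1 were also at 0 in the Gnmt-led healthy cells.

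At 2000 UMIs, 8 of 51 Gnmt-led CCl4 cells were mitosis-high (15.7% [7.02, 28.6]) and 0 were S-high, against 0 of 152 healthy ones, which allows up to 1.97%. All 8 held at least 3 different mitosis genes, and 68 CCl4 cells were too shallow to count. Thinned to 500 UMIs, which keeps every cell, 25 of 211 Apoc2-led cells (11.8% [7.82, 17.0]) and 3 of 119 Gnmt-led CCl4 cells (2.52% [0.523, 7.19]) had at least 2 mitosis UMIs, against 0 of 273 Gnmt-led healthy cells and 0 of 67 neutrophil-like CCl4 cells. The 15 mesenchymal markers summed to 1204 CPM in the Gnmt-led CCl4 and 32.3 in the healthy cells. All 7 of them with at least 10 UMIs were higher. Col1a1, Col3a1, Lum, Pdgfrb, Pdgfra, Des, Reln and Lrat were at 0 in the healthy cells. Over all these clusters the mesenchymal markers summed to 2347 and 15.2 CPM (15 of 15 higher). Their part in the result was not tested. The hepatocyte markers summed to 39772 CPM in the Gnmt-led CCl4 and 58952 in the healthy cells, and over all these clusters to 32431 and 97351 CPM (11 of 15 lower).

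The immune classes and the remaining clusters each held at most 11 mitosis-high cells, the number in the Pln-led cluster. Macrophage and monocyte-like CCl4 cells had 406 CPM [370, 445] of mitosis and 316 [285, 351] of S-phase genes, with 4 mitosis-high and 7 S-high cells of 136. Mki67 had its highest level here, at 62.2 CPM [48.7, 78.4], as did Cdc6 (9.51) and Cdc45 (8.65), although the interval of Mki67 overlapped that of the Serpinb2-led cells [56.7, 64.7]. T and NK cell-like cells had 291 CPM of either list and 1 mitosis-high (0.990%) and 4 S-high cells (3.96% [1.09, 9.83]). The Pln-led cluster (738 CCl4 cells, median 1088.5 UMIs, 7 mesenchymal markers) had 426 CPM [390, 464] of mitosis genes, a ratio of S phase to mitosis of 0.375 and 11 mitosis-high cells of 176. The Igkc-led cells had 187 and 185 CPM, the Xirp2-led cells 52.7 and 198, and the Dmbt1-led healthy cells 122 and 125.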

How the data were processed

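Per the labels, 2 libraries of mouse liver cells were made with 10x Genomics 3′ chemistry. The authors deposited, for each, a matrix of raw UMI counts per gene and barcode, without normalization, and the file headers name Cell Ranger 3.1.0 (healthy) and 6.0.1 (CCl4). The genome build used for counting is not settled by the sources used here. No per-cell annotation was used.

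Barcodes passed with 500 or more UMIs, 200 or more genes and a mitochondrial share of up to 30%, and 277 healthy and 487 CCl4 cells with the highest doublet scores were removed (Scrublet, 0.8% per 1000 cells). The libraries were clustered together without integration and without cell cycle genes (scanpy 1.11.5, 2000 variable genes, 10 principal components, 20 neighbours, Leiden resolution 1). A name needed at least 3 enriched markers, so classes may not match the study's own. CPM were sums over cells with exact Poisson intervals, ratios had exact conditional binomial and shares exact Clopper-Pearson intervals. A count of 0 was set to 3 in ratios and calls. Every one of the 40 genes could be named, and other genes by the highest and lowest 10 ratios, of which some are not reported here. The members, markers and wider lists were chosen with earlier results of these data known.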

Additional observations from a re-analysis of the deposited data

Results flagged for a closer look

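Cells taken out for a high doublet score entered no comparison, yet the CCl4 ones carried mitosis UMIs above the level in the healthy ones. At 2000 UMIs, 14 of 375 such CCl4 cells were mitosis-high (3.73% [2.06, 6.18]), against 0 of 237 healthy ones, which allows up to 1.27%. The share of 3.73% was close to the 3.83% of the CCl4 cells that were kept, and all 14 held at least 3 different mitosis genes. The removed CCl4 cells had a median of 16680 UMIs, and whether they were pairs of cells was not tested.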

How the results depend on the processing

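No paired analysis was possible because each condition was 1 library. Of 156 alternative values of the 14 leading results, 99 moved by less than their counting interval, 57 moved further, among them the mesenchymal ratio of S phase to mitosis, which passed from below 1 to above 1 with cell cycle genes kept in the clustering. Of 765 values of the other 70 results, 515 stayed, 249 moved and 1 CCl4 to healthy ratio changed direction.

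The mesenchymal mitosis level of 328 CPM became 322 with a mitochondrial limit of 10%, 314 with none, 312 with at least 1000 UMIs, 311 without doublet removal, 322 at Leiden resolution 2, 266 with every cell weighing the same, 441 without the 50 most abundant genes, 438 with Stmn1 and 303 without Cenpa. Their S-phase level of 170 CPM became 180 (limit of 10%), 177 (no limit), 180 (no doublet removal), 181 (30 components), 147 (equal weights) and 229 (without the 50 genes). Their ratio of S phase to mitosis, 0.519, became 0.558 and 0.565 with these 2 mitochondrial settings, 0.539 (1000 UMIs), 0.578 (no doublet removal), 0.549 (30 components), 0.409 without Pcna, 0.627 without Top2a and Mki67 and 0.562 without Cenpa. In the clusters with most endothelial markers the ratio of 2.18 became 2.002 (1000 UMIs), 2.32 (30 components), 2.43 (resolution 2), 1.70, 3.06 and 2.43 in the same 3 gene settings. The Cenpa setting and the one with 500 UMIs were chosen after seeing the data.

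With cell cycle genes kept in the clustering, which gathered 200 of the 237 mitosis-high CCl4 cells in 1 cluster, the mesenchymal values became 52.9 CPM for mitosis, 126 for S phase, a ratio of 2.38 and 0.102% mitosis-high cells. The endothelial ratio of S phase to mitosis became 5.10, and the CCl4 to healthy ratio of their mitosis genes turned from 1.82 to 0.730. The mesothelial mitosis ratio of 6.70 became 3.29, or 3.60 with 30 components, and the 22 higher members became 12 and 13.

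Mitosis-high mesenchymal cells, 4.04%, became 2.76% at 1000 UMIs, 5.26% with at least 2 UMIs, 2.88% with at least 5 and 2.42% with 2 of 500. The S-high share of the endothelial clusters, 11.2%, became 5.25%, 21.2% and 4.62% in the first 3. The mitosis ratio over all cells, 3.52, became 2.88 with equal weights, 3.88 without the 50 genes and 4.43 with TMM, and the S-phase ratio, 1.24, became 1.15, 1.37 and 1.56, or 1.21 with the 10% limit. TMM shifted all log2 ratios by 0.33 there. In the clusters with most hepatocyte markers the mitosis ratio of 77.6 became 41.8 (limit of 10%), 26.5 (no limit), 37.4 (no doublet removal) and 18.2 (30 components), and the 18 higher members became 35 with no filter on low counts. The cause of these moves was not tested. Depth limits the clusters under a median of 2000 UMIs most, since thinning leaves out most of their cells.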
